A study of Mus musculus with 8 samples.

Results

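Spleens of mice given PBS (Mock) for 7 days were compared across 3 genotypes with a quantitative PCR plate of the Toll-like receptor (TLR) pathway. The groups were C57BL/6 wild type, sampled in 2 experiments, TLR7-/- mice and IFNAR-/- mice, each sampled in 1 experiment. These are 4 of the 8 samples of the series, chosen by their treatment label, and all 84 pathway genes and 5 housekeeping genes of the plate were taken. The other 4 samples came from mice of the same genotypes given R848, a small-molecule agonist of TLR7, at 1 mg per kg per day. Each sample was RNA pooled from 3 mice and extracted from 20 mg of whole spleen. The labels name no other allele or agent, and give neither the age of the mice nor the background or construction of the deficient lines. The wild-type values used here are the deposited mean of the 2 experiments. No group therefore has a replicate error, no test between groups was made, and "higher" and "lower" are said of these pools alone. The labels could not be checked from the data. The position of the *Tlr7* PCR product relative to the deletion is not stated in the labels or files, and no gene of the interferon receptor is on the plate. Lineage-defining genes of T cells and of leukocytes at large, such as *Cd3e* and *Ptprc*, are not on it either.

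Toll-like receptors sense microbial products at the cell surface or nucleic acids in endosomes. Most of them signal through the adaptor MyD88 to the IRAK kinases and the ubiquitin ligase TRAF6, and from there to NF-kB and to the MAP kinases that act on AP-1. TLR3 uses the adaptor TRIF, and TLR4 uses both routes. Type I interferon made downstream binds its receptor IFNAR and induces a further set of genes. Some of these encode pathway members, and a weak constant interferon signal is known to reach such genes without infection. The spleen holds B cells, T cells, dendritic cells and macrophages, which differ in the receptors they carry.

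Levels are delta-Ct values in cycles, which are the Ct of a gene minus the mean Ct of *Hprt1*, *Hsp90ab1* and *Gapdh*. A lower delta-Ct is a higher level, 1 cycle is a 2-fold difference in transcript, and log2 differences between strains are differences of delta-Ct. A Ct above 35 was set to 35, so each column has a highest possible delta-Ct, called its cap here, and for a gene at the cap only a limit on its level is known. The cap was 13.15 in wild-type Mock, 15.10 in TLR7-/- Mock and 12.43 in IFNAR-/- Mock, and was shared by 7, 6 and 14 of the 84 genes. It implies a mean reference Ct of 21.85, 19.90 and 22.57, at 50 ng of RNA in each reaction. The TLR7-/- column was thus read to the lowest level and the IFNAR-/- column to the least low. A difference with a capped column is given as a limit, or called open where the limit does not fix a direction at 2-fold. A gene capped in a single wild-type experiment cannot be told from the mean. Its true level would be below the printed one, and a higher level in a deficient strain would then be larger than printed and a lower one smaller.

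The other housekeeping genes of the plate did not keep level with the 3 used for scaling. The beta-actin gene *Actb* had delta-Ct values of -3.05 in wild type, -4.10 in TLR7-/- and -2.57 in IFNAR-/-. The beta-glucuronidase gene *Gusb* had values of 5.60, 4.50 and 6.33 in the same order. Both were highest in TLR7-/- Mock and lowest in IFNAR-/- Mock. Their log2 differences from wild type were 1.05 and 1.10 in TLR7-/- and -0.48 and -0.73 in IFNAR-/-. The reference genes differed by no more than 0.28 between any 2 of the Mock columns. They are read against their own mean, however, so a shift that all 3 share cannot be seen in these values. The median pathway gene had the same order as *Actb* and *Gusb*, with a delta-Ct of 7.47 in wild type, 6.45 in TLR7-/- and 8.23 in IFNAR-/-. The part of reference Ct and RNA quality in the strain differences was not tested.

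**Figure D1:**
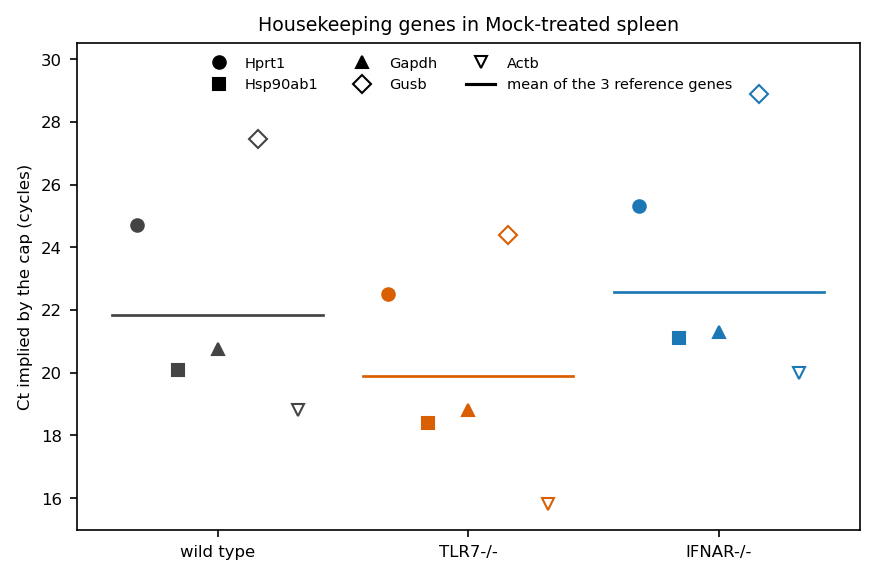
The Ct of the 5 housekeeping genes (y axis, cycles, implied by the cap) is plotted for each Mock column on the x axis, with filled symbols for the 3 reference genes, open symbols for *Gusb* and *Actb*, and a line at the reference mean. The reference mean lies at 21.85 in wild type, 19.90 in TLR7-/- and 22.57 in IFNAR-/-, and *Actb* lies at 18.8, 15.8 and 20.0.

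The TLR7-/- Mock column stood apart from the other Mock columns. Over genes measured on both sides, and without the first 4 wells of the plate, its median absolute log2 difference was 1.05 from wild-type Mock and 1.63 from IFNAR-/- Mock. It was 0.27 from R848-treated TLR7-/- spleen and 0.43 from R848-treated IFNAR-/- spleen, so it lay nearer to these treated pools than to the other Mock pools. These treated pools were also nearer to it in the reference Ct that the cap implies. That was 19.90 in TLR7-/- Mock and, with R848, 19.37 in TLR7-/- and 20.07 in IFNAR-/-. In wild-type and IFNAR-/- Mock it was 21.85 and 22.57. The part of reference Ct in this nearness was not tested. IFNAR-/- Mock and wild-type Mock differed by a median of 0.73. For scale, R848 and Mock differed by a median of 1.18 in wild type and 1.40 in IFNAR-/-. From R848-treated wild-type spleen TLR7-/- Mock differed by 0.88. After each pair was centred on its median gene, the 3 differences between Mock columns were 0.70 each. Those of TLR7-/- Mock were then 0.25 from TLR7-/-, 0.40 from IFNAR-/- and 0.97 from wild-type spleen given R848. After centring, R848 and Mock differed by 1.05 in wild type and 0.90 in IFNAR-/-.

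**Figure D2:**
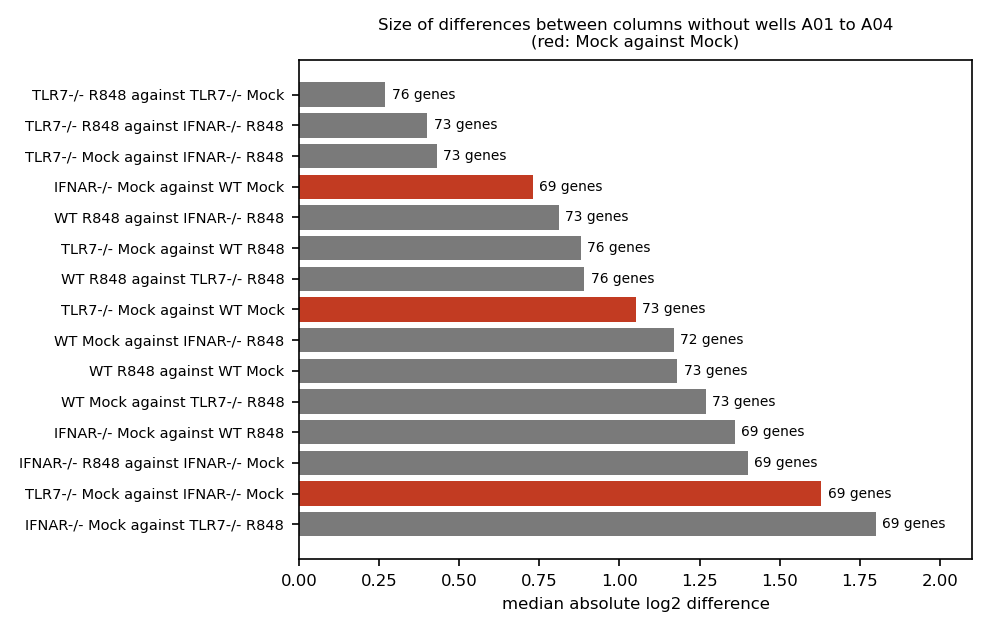
Bars give the median absolute log2 difference (x axis) over genes measured in both of 2 columns, for all pairs of the 6 columns (y axis), without wells A01 to A04, and red bars compare Mock with Mock. TLR7-/- Mock differs by 0.27 from TLR7-/- R848 and by 0.43 from IFNAR-/- R848, against 1.05 from wild-type Mock and 1.63 from IFNAR-/- Mock.

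Some of the most extreme values of the deficient strains lay in the first 4 wells, A01 to A04. *Btk*, the tyrosine kinase below the B-cell receptor, had a delta-Ct of 4.10 in wild-type Mock and was at the cap in both deficient Mock columns, and in R848 it was 5.67 in wild type and again at the cap in both deficient strains. *Casp8*, encoding an apoptosis-initiating protease, was 6.00 in wild type, 10.60 in TLR7-/- and at the cap in IFNAR-/-. *Ccl2*, encoding a monocyte chemokine, was 9.80, 4.70 and at the cap. *Cd14*, which myeloid cells use as co-receptor for lipopolysaccharide, was 6.15, at the cap and 8.13. With R848 *Casp8* was 4.77 in wild type, 11.83 in TLR7-/- and again at the cap in IFNAR-/-. With R848 the deficient strains read 10.13 and 5.63 for *Ccl2* and 5.73 and at the cap for *Cd14*. These 4 genes are kept below, and the counts of genes 2-fold higher or lower over the whole plate are also given without them. The part of the wells in these values was not tested.

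The order of levels was shared in its main lines by the 3 untreated spleens. Of the 10 most abundant transcripts of each column, 6 were among the 10 in all 3 columns. They were *Hspd1*, a mitochondrial chaperonin, *Nfkbia*, the inhibitor of NF-kB, *Cebpb*, a myeloid transcription factor, *Ly86*, which encodes the MD-1 partner of the TLR4 relative RP105, *Ube2n*, a ubiquitin-conjugating enzyme of the TRAF6 step, and *Pglyrp1*, a peptidoglycan-binding protein of neutrophils. Levels of different genes also rest on the efficiency of each assay, which was not measured, and PCR products of fixed size need no scaling by transcript length. *Hspd1* was the most abundant in wild type and IFNAR-/-, with delta-Ct values of 0.95 and 0.93, and shared the third place with *Cebpb* and *Ube2n* in TLR7-/- at 1.80. *Nfkbia* was the most abundant in TLR7-/-, at 0.90, and stood at 1.75 in wild type and 2.53 in IFNAR-/-. *Cxcl10*, encoding a chemokine for activated T cells that interferons induce, had the third highest level in wild type at 2.00 and the second in TLR7-/- at 1.60, but was 16th in IFNAR-/- at 5.53. In all, 14 of 84 genes had a delta-Ct under 5 in all 3 columns, among them *Cd86*, *Irf1*, *Tradd*, *Peli1* and *Map3k7*.

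The transcripts read as rare included cytokines, receptors and signalling genes. Whether such a reading came from a low level or from the assay of the gene was not tested. *Csf3* (granulocyte colony-stimulating factor), *Ifnb1* (interferon beta), *Irak1* (the kinase recruited by MyD88) and *Tlr5* (the flagellin receptor) were at the cap in all 3 columns. *Hspa1a* (an inducible heat-shock protein), *Ppara* (a lipid-sensing nuclear receptor) and *Ptgs2* (cyclooxygenase-2) were at the cap in wild type and IFNAR-/- and were read in TLR7-/-, at 14.00, 14.10 and 12.10. The first 2 of these readings lie beyond the caps of the other columns, so a like level there would not have been seen. *Il10*, *Il2*, *Il6* and *Tlr3*, with *Ccl2* and *Casp8* of the first wells, were at the cap in IFNAR-/- alone, and *Cd14* in TLR7-/- alone. Of the 69 genes never at the cap, *Csf2*, *Ifng*, *Il1a*, *Irf3*, *Tlr6* and *Tlr7* were among the 10 least abundant of each column. *Irf3*, the transcription factor that starts interferon beta transcription, was among these rare readings at 11.35, 10.70 and 11.63.

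Across the 3 columns the steadiest of the 69 genes never at the cap was *Csf2*, encoding a myeloid growth factor, whose delta-Ct was 12.30 in wild type, 12.20 in TLR7-/- and 12.23 in IFNAR-/-, a range of 0.10 cycles. The IFNAR-/- reading lies next to the cap of that column, 12.43. *Cebpb* followed with a range of 0.43, then *Mapk8ip3*, a scaffold of JNK signalling, with 0.45, *Hras1*, a small GTPase, with 0.57 and *Map3k7*, which encodes the kinase TAK1, with 0.63. At the other end of these 69 genes *Jun* spanned 4.13 cycles, *Clec4e* 3.95, *Cxcl10* 3.93, *Ticam1* 3.73 and *Fos* 3.33. Of these, *Jun* and *Fos* encode subunits of AP-1. Genes at the cap in 1 or 2 columns spanned more in 5 cases, at least 11.00 cycles for *Btk*, 8.95 for *Cd14*, 7.73 for *Ccl2*, 6.43 for *Casp8* and 6.03 for *Il10*.

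**Figure D3:**
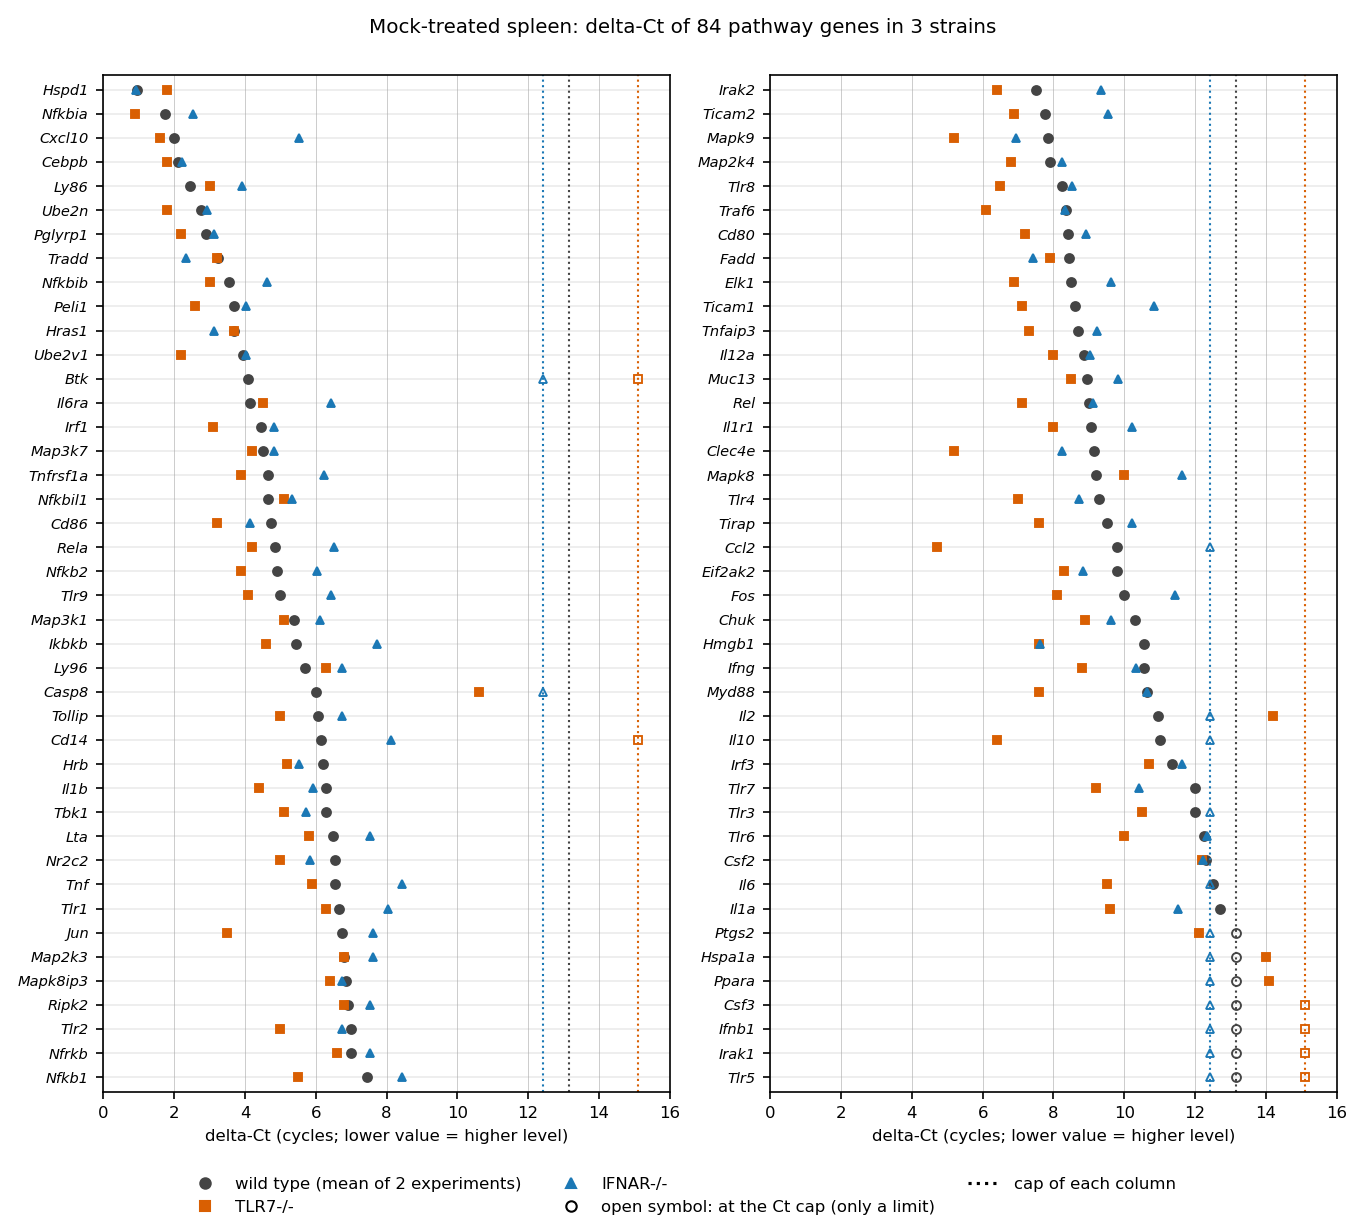
Delta-Ct (x axis, cycles, lower value for a higher level) of the 84 pathway genes (rows, ordered by the wild-type level) is plotted for wild-type, TLR7-/- and IFNAR-/- Mock spleen. Open symbols stand at the cap of their column (dotted lines at 13.15, 15.10 and 12.43) and are limits only. *Cxcl10* is far to the right in IFNAR-/- alone, and *Il10* and *Clec4e* far to the left in TLR7-/- alone.

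Untreated TLR7-/- spleen read higher than wild type for much of the plate. Of 84 genes, 41 (48.8%) were at least 2-fold higher, 4 (4.76%) at least 2-fold lower, 33 within 2-fold and 6 open. The highest log2 differences were those of *Ccl2* (5.10), the anti-inflammatory cytokine gene *Il10* (4.60), *Clec4e* (3.95), which encodes the receptor Mincle, *Jun* (3.25) and the inflammatory cytokine gene *Il1a* (3.10). The lower genes were *Btk*, *Cd14* and *Casp8* of the first wells and *Il2*, a T-cell growth factor, at -3.25. Over 75 genes measured in both columns 65 differences were above 0, and the median was 1.05 with quartiles of 0.43 and 1.82. Centred on that median gene, 13 genes lay 2-fold or more above and 13 below, and 76 and 4 without any reference gene. Without the first 4 wells the counts were 40 and 1. In whole tissue, fewer cells of a type and less RNA per cell cannot be told apart.

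Values were rescaled within the plate in 5 other ways, by *Hprt1*, *Hsp90ab1* or *Gapdh* alone, by all 5 housekeeping genes and by centring on the median gene. Each of them moves all log2 differences of a comparison by 1 constant, so the 5 are not separate checks. Here the lowest shift was -1.05, from centring, and the highest was 0.25, from *Hsp90ab1* alone. Under all 5 of them 13 of the 41 genes were still at least 2-fold higher. They were *Ccl2*, *Clec4e*, *Hmgb1*, *Il10*, *Il1a*, *Il6*, *Jun*, *Mapk9*, *Myd88*, *Tlr4*, *Tlr6*, *Tlr7* and *Traf6*. Of these, *Il1a*, *Il6*, *Tlr6* and *Tlr7* had an implied wild-type Ct above 33. All 4 lower genes were still lower, but at -3.25 or below they could not be lost by these shifts. The median difference was 0.65 in the most abundant 23 of the genes never at the cap, 1.05 in the middle 23 and 1.5 in the least abundant 23, so it grew with rarity.

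Untreated IFNAR-/- spleen read lower than wild type for a smaller share of the plate. At least 2-fold lower were 26 of 84 genes (31%), 4 (4.76%) were at least 2-fold higher, 45 lay within 2-fold and 9 were open. Among genes measured in both columns the lowest log2 differences were those of *Cxcl10* (-3.53), the JNK1 gene *Mapk8* (-2.43), the kinase gene *Ikbkb* and the interleukin-6 receptor gene *Il6ra* (-2.28 each) and the TRIF gene *Ticam1* (-2.23). The 4 higher genes were *Hmgb1*, whose product binds chromatin and is an alarm signal once released (2.92), *Tlr7* (1.57), *Il1a* (1.17) and the death-domain adaptor gene *Fadd* (1.02). The median over 70 genes measured in both columns was -0.35, with quartiles of -1.12 and 0.20. Centred on the median gene the counts were 11 higher and 20 lower, and without any reference gene 1 and 46. Without the first 4 wells they were 4 and 22.

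Under the same 5 scalings 20 of the 26 lower genes were still at least 2-fold lower. Beside *Btk*, *Casp8*, *Ccl2* and *Cd14* of the first wells, they were *Cxcl10*, *Fos*, *Ikbkb*, *Il10*, *Il2*, *Il6ra*, *Irak2*, *Ly86*, *Mapk8*, *Rela*, *Ticam1*, *Ticam2*, *Tlr1*, *Tlr9*, *Tnf* and *Tnfrsf1a*. *Hmgb1*, *Il1a* and *Tlr7* were still higher and *Fadd* was not. *Il1a* and *Tlr7* had implied wild-type Ct values of 34.55 and 33.85, near the limit of 35. Without genes above Ct 33 the counts were 2 higher and 18 lower. The median difference was -0.38 in the most abundant 23 genes, -0.53 in the middle 23 and -0.18 in the least abundant 23, with no order by level.

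Set directly against each other, the deficient strains differed more than either did from wild type, though not after centring on the median gene. TLR7-/- Mock was at least 2-fold higher than IFNAR-/- Mock for 51 of 84 genes (60.7%) and lower for 1 (1.19%), *Cd14*, with 23 within 2-fold and 9 open. The highest differences measured in both columns were *Jun* at 4.13, *Cxcl10* at 3.93, *Ticam1* at 3.73, *Fos* at 3.33, *Ikbkb* at 3.13 and *Clec4e* and *Myd88* at 3.03 each. As limits, *Ccl2* was at least 7.73 and *Il10* at least 6.03 log2 units higher. The median over 69 genes was 1.63. After centring, 15 genes were higher and 15 lower. Without the first 4 wells 49 were higher and none lower, and without any reference gene 77 were higher and 1 lower. Under the 5 scalings 15 of the 51 were still at least 2-fold higher, namely *Ccl2*, *Clec4e*, *Cxcl10*, *Elk1*, *Fos*, *Ikbkb*, *Il10*, *Il6*, *Irak2*, *Jun*, *Myd88*, *Nfkb1*, *Ticam1*, *Ticam2* and *Tirap*. The comparisons with wild type share the wild-type column, so their values are set side by side below and their likeness is not counted as a result.

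**Figure D4:**
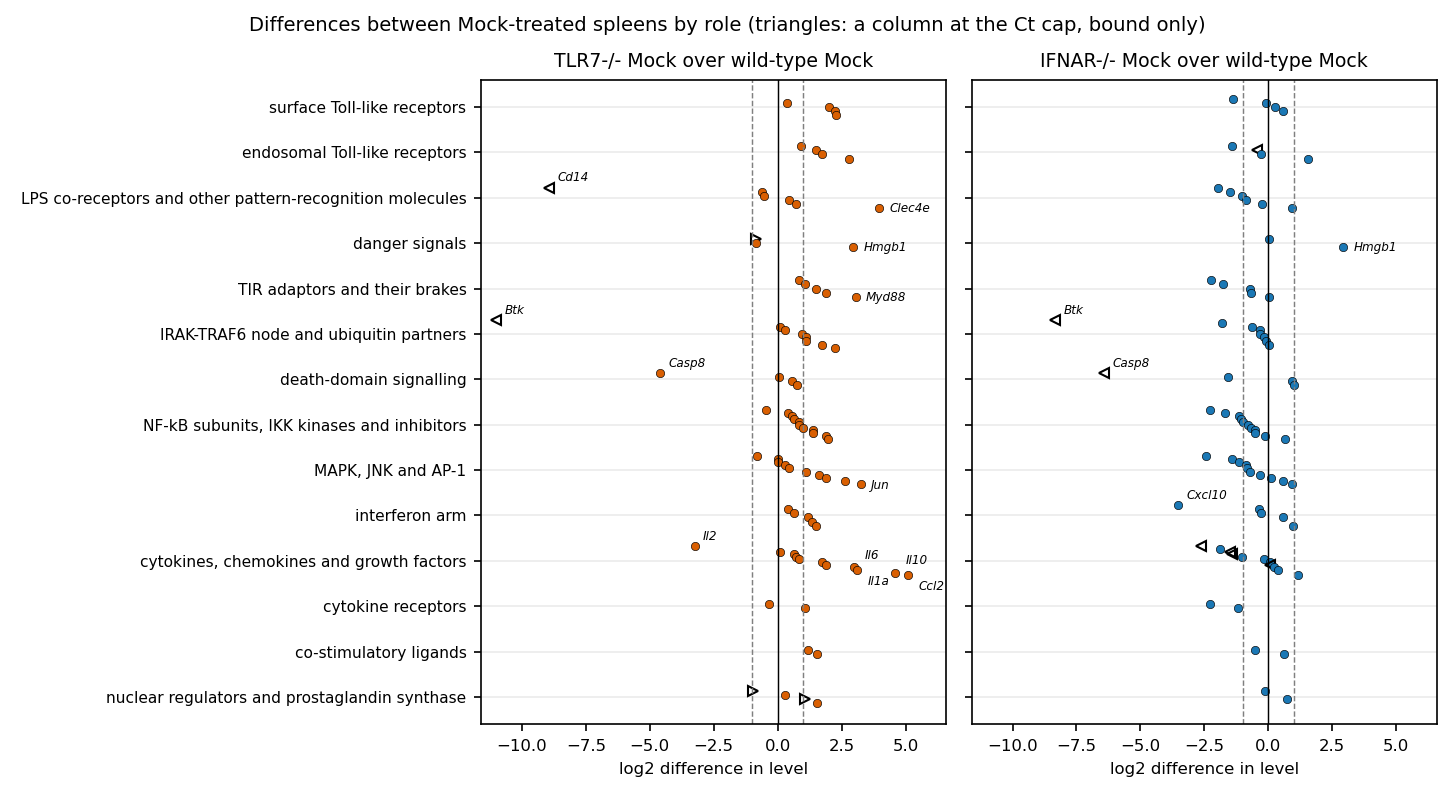
Log2 differences from wild-type Mock (x axis) are plotted for TLR7-/- Mock (left) and IFNAR-/- Mock (right), with genes grouped by role (y axis) and dashed lines at 2-fold. Circles are measured in both columns, triangles are limits pointing to where the value can lie, and genes at the cap in both columns are left out. Most circles on the left lie above 0, and *Cxcl10* at -3.53 is the lowest circle on the right.

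Among the Toll-like receptors, *Tlr9*, which senses DNA in endosomes, had the highest level in every strain, with delta-Ct values of 5.00 in wild type, 4.10 in TLR7-/- and 6.43 in IFNAR-/-. *Tlr1* (6.65, 6.30 and 8.03) and *Tlr2* (7.00, 5.00 and 6.73), which pair to sense lipopeptides, came next in each strain. *Tlr8* (8.25, 6.50 and 8.53) and the lipopolysaccharide receptor *Tlr4* (9.30, 7.00 and 8.73) followed. *Tlr7*, the receptor of single-stranded RNA, was rare, at 12.00, 9.20 and 10.43, as were *Tlr6*, the other partner of TLR2, at 12.25, 10.00 and 12.33, and *Tlr3*, the receptor of double-stranded RNA, at 12.00, 10.50 and the cap of 12.43. The order was thus similar in the 3 columns, apart from *Tlr1* and *Tlr2*, which changed places, and the 3 rarest. No spread is known against which neighbours in this order could be told apart, and *Tlr3*, *Tlr6* and *Tlr7* of wild type lie near its cap of 13.15.

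Against wild type, TLR7-/- Mock was at least 2-fold higher for 3 of 5 surface receptors, which were *Tlr4* (2.30), *Tlr6* (2.25) and *Tlr2* (2.00), and after centring for the first 2 of them. The share over all 84 genes was 48.8%, against 60% of the surface and 75% of the endosomal receptors. After centring 13 of the 84 genes were at least 2-fold higher. *Tlr1* was within 2-fold at 0.35. Of the 4 endosomal receptors *Tlr7* (2.80), *Tlr8* (1.75) and *Tlr3* (1.5) were higher, after centring *Tlr7* alone, and *Tlr9* was within 2-fold at 0.90. The higher *Tlr7* reading came from the strain named for lacking this receptor. In IFNAR-/- Mock *Tlr7* was 1.57 higher than in wild type, while *Tlr9* and *Tlr1* were lower at -1.43 and -1.38, and *Tlr2* (0.27), *Tlr4* (0.57), *Tlr6* (-0.08) and *Tlr8* (-0.28) lay within 2-fold. All 8 receptors measured in TLR7-/- were at least 2-fold above IFNAR-/- Mock, from 1.23 for *Tlr7* to 2.33 for *Tlr6* and *Tlr9*, with *Tlr3* as a limit of 1.93, where 60.7% of all genes were. After centring none of them was 2-fold higher, where 15 of the 84 genes were, and *Tlr7* turned to -0.40.

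The partners of the receptors included genes on both sides of wild type in each deficient strain. *Clec4e*, the Mincle gene of myeloid cells, had delta-Ct values of 9.15, 5.20 and 8.23, so TLR7-/- stood apart at 3.95 above wild type. *Ly86* was 2.45, 3.00 and 3.93, and *Ly96*, which encodes the MD-2 partner of TLR4, was 5.70, 6.30 and 6.73. Both were lower in the deficient strains, within 2-fold in TLR7-/- (-0.55 and -0.60) and at -1.48 and -1.03 in IFNAR-/-. *Ly96* was within 2-fold of wild type after centring in IFNAR-/-. *Pglyrp1* was 2.90, 2.20 and 3.13 and *Muc13*, a membrane mucin, was 8.95, 8.50 and 9.83, each within 2-fold of wild type in both strains. Counting *Cd14*, this list had 1 of 6 higher and 1 lower in TLR7-/- and 3 lower in IFNAR-/-, and after centring 1 and 3 in TLR7-/- and 1 and 2 in IFNAR-/-. The 16.7% higher in TLR7-/- compare with 48.8% of all genes, and the 50% lower in IFNAR-/- with 31%. After centring 13 of all 84 genes were higher and 13 lower in TLR7-/-, and 11 higher and 20 lower in IFNAR-/-. The median in IFNAR-/- was -0.96, against -0.35 over all genes.

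Of the adaptors that bind the receptors, *Myd88* had delta-Ct values of 10.65 in wild type, 7.60 in TLR7-/- and 10.63 in IFNAR-/-, with wild type and IFNAR-/- alike and TLR7-/- 3.05 log2 units higher. *Ticam1*, encoding TRIF, was 8.60, 7.10 and 10.83, and its bridging adaptor gene *Ticam2* was 7.75, 6.90 and 9.53. Both were lowest in IFNAR-/-, at -2.23 and -1.78 from wild type. *Tirap*, which bridges MyD88 to TLR2 and TLR4, was 9.50, 7.60 and 10.23, and *Tollip*, an inhibitor of the pathway, was 6.05, 5.00 and 6.73. Of the 5 genes 4 were at least 2-fold higher in TLR7-/- than in wild type (80%, against 48.8% of all genes, with a median of 1.5 against 1.05). In IFNAR-/- 2 were lower (40%, against 31%, with a median of -0.73 against -0.35). After centring *Myd88* alone was still higher in TLR7-/-, while the same 2 were still lower in IFNAR-/-. Of all 84 genes 13 were then higher in TLR7-/- and 20 lower in IFNAR-/-. All 5 were at least 2-fold higher in TLR7-/- than in IFNAR-/-, by 1.73 to 3.73, where 51 of all 84 genes (60.7%) were. After centring 4 of the 5 were, against 15 of the 84.

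At the next step *Traf6*, the ubiquitin ligase of the pathway, had delta-Ct values of 8.35, 6.10 and 8.33, the same pattern as *Myd88*, with a difference of 2.25 in TLR7-/- and 0.02 in IFNAR-/-. *Ube2v1*, which works with *Ube2n* in building the ubiquitin chains that TRAF6 makes, was 3.95, 2.20 and 4.03. *Irak2*, encoding a kinase that sustains the signal, was 7.50, 6.40 and 9.33 and so differed from wild type by 1.10 in TLR7-/- and -1.83 in IFNAR-/-. *Peli1*, a ubiquitin ligase that acts on IRAK proteins, was 3.70, 2.60 and 4.03. *Ube2n* (0.95 and -0.18), *Map3k7* (0.30 and -0.33) and *Ripk2*, the kinase that NOD receptors use (0.10 and -0.63), were within 2-fold of wild type in both strains. With *Irak1* open and *Btk* lower, this list had 4 of 9 higher in TLR7-/- and 2 of 9 lower in IFNAR-/-, and after centring 1 higher and 1 lower in TLR7-/- and 2 lower in IFNAR-/-. These shares, 44.4% and 22.2%, are below those of all genes, 48.8% and 31%. The centred counts over all 84 genes were 13 higher and 13 lower in TLR7-/-, and 11 higher and 20 lower in IFNAR-/-. Of the death-domain genes beside *Casp8*, *Tnfrsf1a*, the main TNF receptor, was 4.65, 3.90 and 6.23 and so was lower in IFNAR-/- at -1.58. *Tradd*, its adaptor gene, was 3.25, 3.20 and 2.33, and *Fadd* was 8.45, 7.90 and 7.43, with the highest level of both in IFNAR-/-.

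Among the genes of NF-kB and its regulators, in TLR7-/- Mock *Nfkb1* (7.45 in wild type and 5.50 in TLR7-/-), encoding the p50 precursor, and *Rel* (9.0 and 7.10), encoding c-Rel, were higher at 1.95 and 1.90. *Chuk* (IKK alpha) and *Tnfaip3* (the inhibitor A20) were both at 1.40, and *Nfkb2* was at 1.00, which turned to -0.05 after centring. That made 5 of 11 higher (45.5%, near the 48.8% of all genes), with a median of 0.85, which turned to -0.20 after centring, when none was higher and 1 was lower. Of all 84 genes 13 were then higher and 13 lower. In IFNAR-/- Mock *Ikbkb*, encoding IKK beta, was 7.73 against 5.45 in wild type, and *Rela*, encoding p65, was 6.53 against 4.85. These and *Nfkb2* (-1.13) and *Nfkbib* (-1.08), an inhibitor of NF-kB, made 4 of 11 lower (36.4%, near the 31% of all genes), with a median of -0.78. Below wild type by any amount lay 10 of 11, against 47 of the 70 plate genes measured in both columns. After centring 2 were lower, *Ikbkb* and *Rela*, and 1 was higher, against 20 lower and 11 higher of all 84 genes. Between the deficient strains all 11 were higher by some amount in TLR7-/-, from 0.23 for *Nfkbil1* to 3.13 for *Ikbkb*. So were 65 of the 69 plate genes measured in both columns. At least 2-fold higher were 8 of the 11 (72.7%, against 60.7% of all genes), and after centring 2 were higher and 1 lower. Of all 84 genes 15 were then higher and 15 lower.

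In the MAP kinase branch *Jun* had delta-Ct values of 6.75, 3.50 and 7.63 and *Fos* 10.00, 8.10 and 11.43. Both AP-1 genes were thus highest in TLR7-/- and lowest in IFNAR-/-. *Elk1*, a transcription factor that MAP kinases act on, had the same order at 8.50, 6.90 and 9.63. The JNK genes went apart from each other. *Mapk9* (JNK2) was 7.85, 5.20 and 6.93, with its lowest level in wild type, and *Mapk8* (JNK1) was 9.20, 10.00 and 11.63, with its highest level in wild type and a difference of -2.43 in IFNAR-/-. Of 10 genes 5 were higher and none lower in TLR7-/-, and 3 were lower and none higher in IFNAR-/-. The shares of 50% higher and 30% lower are near those of all genes, 48.8% and 31%. After centring 2 were higher and 3 lower in TLR7-/-, and 1 higher and 2 lower in IFNAR-/-. Over all 84 genes these centred counts were 13 and 13 in TLR7-/-, and 11 and 20 in IFNAR-/-. *Hras1* and *Map2k3* read 3.70 and 6.80 in both wild type and TLR7-/-, a difference of 0.

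Of the genes that make or answer interferon, *Cxcl10* set IFNAR-/- apart. Its delta-Ct was 2.00 in wild type, 1.60 in TLR7-/- and 5.53 in IFNAR-/-, which is 11.6-fold lower in IFNAR-/- than in wild type and 15.2-fold lower than in TLR7-/-. The 4 other interferon-inducible genes measured in IFNAR-/- were higher or within 2-fold, and *Tlr3* was at the cap there, so that it was -0.43 from wild type or below. *Irf1*, an interferon-response transcription factor, was 4.45, 3.10 and 4.83, and *Eif2ak2*, encoding the kinase PKR, was 9.80, 8.30 and 8.83. *Irf1* thus lay within 2-fold of wild type in IFNAR-/- (-0.38), and *Eif2ak2* lay above it at 0.97. *Myd88* was at 0.02, *Tlr7* was higher at 1.57 and *Tlr3* was open. The 6 interferon-inducible genes thus had 1 higher, 1 lower, 3 within 2-fold and 1 open in IFNAR-/- Mock. After centring 2 were higher and 1 lower. Over all 84 genes 4 were higher, 26 lower, 45 within 2-fold and 9 open, and after centring 11 were higher and 20 lower. In TLR7-/- Mock 5 of the 6 were at least 2-fold higher (83.3%, against 48.8% of all genes), *Cxcl10* being the exception at 0.40, and after centring *Myd88* and *Tlr7* alone were. Of all 84 genes 13 were higher in TLR7-/- after centring. *Tbk1*, the kinase that activates IRF3, was 6.30, 5.10 and 5.73, and *Irf3* was within 2-fold in both strains at 0.65 and -0.28. *Ifnb1* was at the cap in each column.

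The sequences upstream of *Cxcl10* and *Myd88* are shown because these 2 interferon-inducible genes differed most from wild type, *Cxcl10* in IFNAR-/- and *Myd88* in TLR7-/- Mock. They are the 250 bases before the start of each gene in RefSeq (GRCm38.p6), 5′ to 3′ on the strand of the gene, with matches to 4 searched motifs in capitals. *Cxcl10* lies at chr5:92348890-92349139 and *Myd88* at chr9:119340019-119340268, both on the minus strand.
Cxcl10: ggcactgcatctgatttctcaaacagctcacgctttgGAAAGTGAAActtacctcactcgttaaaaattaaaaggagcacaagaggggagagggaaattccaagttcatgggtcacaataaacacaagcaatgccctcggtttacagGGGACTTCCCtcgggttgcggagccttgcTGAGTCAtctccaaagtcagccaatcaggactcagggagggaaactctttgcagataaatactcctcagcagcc
Myd88: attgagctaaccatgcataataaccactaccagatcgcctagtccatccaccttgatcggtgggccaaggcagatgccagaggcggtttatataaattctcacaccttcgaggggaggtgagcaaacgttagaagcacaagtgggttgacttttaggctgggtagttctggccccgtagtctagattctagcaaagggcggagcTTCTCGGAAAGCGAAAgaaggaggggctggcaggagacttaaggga
In *Cxcl10* the capitals mark, from left to right, the core of the interferon-stimulated response element (ISRE) at -213 to -204 from the start, a kB match at -103 to -94 and an AP-1 match at -74 to -68. In *Myd88* they mark a match to the interferon-gamma activated site (GAS) at -46 to -38 that overlaps an ISRE core at -40 to -31. Searched on both strands, the ISRE core GAAANNGAAA was in 2.98% of 32851 windows of this length and in those of 3 of the 71 plate genes that matched the RefSeq table, *Cxcl10*, *Myd88* and *Tlr6*. The GAS letters TTCNNNGAA were in 7.02% of windows and 12 of the 71 genes, kB as GGGANTTNCC in 0.98% and 9 genes, and AP-1 as TGANTCA in 6.75% and 8 genes. *Tlr6* differed from wild type by 2.25 in TLR7-/- Mock and -0.08 in IFNAR-/- Mock. A match is a description of letters only, and *Tlr7* had no entry.

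The highest differences of TLR7-/- Mock from wild type were those of the chemokine gene *Ccl2* and the cytokine gene *Il10*. The latter had delta-Ct values of 11.00 in wild type, 6.40 in TLR7-/- and the cap of 12.43 in IFNAR-/-, a difference of 4.60 and of -1.43 or below. *Il6*, an inflammatory cytokine gene, was 12.50, 9.50 and at the cap, and *Il1a* was 12.70, 9.60 and 11.53. The wild-type readings of *Il6* and *Il1a* lie close to the cap of 13.15. *Il1b* (6.30, 4.40 and 5.93) and *Ifng*, encoding interferon gamma (10.55, 8.80 and 10.33), were also higher in TLR7-/- and within 2-fold of wild type in IFNAR-/-. *Il2* went the other way at 10.95, 14.20 and the cap, and its TLR7-/- reading lies beyond the caps of the other columns. With *Ccl2*, 6 of 12 genes were higher (50%, near the 48.8% of all genes) and 1 lower in TLR7-/-, and after centring 4 and 1. Of all 84 genes 13 were then higher and 13 lower.

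*Tnf*, encoding tumour necrosis factor, and *Lta*, encoding lymphotoxin alpha, were lower in IFNAR-/- Mock. *Tnf* was 6.55, 5.90 and 8.43, which is -1.88 from wild type, and *Lta* was 6.50, 5.80 and 7.53, which is -1.03. In TLR7-/- both were within 2-fold of wild type, at 0.65 and 0.70. With *Ccl2*, *Il10* and *Il2* as limits, 5 of 12 cytokine genes were lower (41.7%, against 31% of all genes) and *Il1a* was higher in IFNAR-/-, and after centring 4 and 1, with *Lta* within 2-fold. Of all 84 genes 20 were then lower and 11 higher. *Il12a*, a subunit gene of interleukin 12, was 8.85, 8.0 and 9.03 and *Csf2* was described above. The cytokine receptor genes were low in IFNAR-/-, with *Il6ra* at 4.15, 4.50 and 6.43 and *Il1r1* at 9.05, 8.0 and 10.23, and after centring *Il6ra* alone was still 2-fold lower.

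Among the remaining roles *Hmgb1* was higher in both deficient strains, with delta-Ct values of 10.55 in wild type, 7.60 in TLR7-/- and 7.63 in IFNAR-/-. Wild type was the low column, and the deficient columns were 0.03 apart. *Hspd1* was lower in TLR7-/- at -0.85 and 0.02 from wild type in IFNAR-/-, both within 2-fold. The co-stimulatory ligand genes *Cd86* (4.75, 3.20 and 4.13) and *Cd80* (8.40, 7.20 and 8.93) were higher in TLR7-/- at 1.55 and 1.20 and within 2-fold in IFNAR-/-, and after centring neither was 2-fold higher. *Nr2c2*, a nuclear receptor gene, was 6.55, 5.00 and 5.83, and *Ptgs2* was at least 1.05 higher in TLR7-/- than in wild type. *Hrb*, the plate's only gene outside these lists, was 6.20, 5.20 and 5.53.

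Genes associated with the cell types of the spleen are few on the plate, and none of them alone defines a cell type. Of 7 genes of monocytes, macrophages and neutrophils, *Clec4e*, *Tlr2*, *Tlr4* and *Il1b* were higher in TLR7-/- Mock, *Cd14* was lower, and *Cebpb* and *Pglyrp1* were within 2-fold. The share higher was 57.1%, against 48.8% of all genes. After centring 2 were higher and 1 lower, against 13 higher and 13 lower of all 84 genes. In IFNAR-/- Mock 6 of the 7 were within 2-fold and *Cd14*, of the first wells, was lower. Over all 84 genes 45 were within 2-fold there and 26 (31%) lower. Of the B cell-associated genes *Btk*, of the first wells, was at the cap in both deficient strains. *Cd86* was higher in TLR7-/- and within 2-fold in IFNAR-/-, and *Ly86* was within 2-fold in TLR7-/- and lower in IFNAR-/-. Of the T and NK cell products *Il2* was lower in both strains. *Ifng* was higher in TLR7-/- and within 2-fold in IFNAR-/-, and *Lta* was within 2-fold in TLR7-/- and lower in IFNAR-/-. In TLR7-/- each list had 1 of 3 genes higher and 1 lower (33.3% each), against 48.8% and 4.76% of all genes. In IFNAR-/- each had 2 of 3 lower (66.7%, against 31% of all genes). Of *Muc13*, *Ppara* and *Il1r1*, which stand for epithelium and stroma, *Il1r1* was 2-fold higher in TLR7-/- at 1.05 and 2-fold lower in IFNAR-/- at -1.18, neither of which held after centring. The part of cell composition in the strain differences was not tested.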

How the data were processed

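Quantitative PCR readings (RT² Profiler plate, oligo(dT) reverse transcription) were taken as deposited. Per the file headers the authors' delta-Ct values are on a log2 scale, in cycles, and per the series' design text they were normalized to *Hprt1*, *Hsp90ab1* and *Gapdh* with blank readings and those later than cycle 35 set to 35. The deposited tables also hold a ratio of R848 over Mock, its signed form and 6 columns of 2 to the minus delta-Ct, which were not used. Raw Ct values and separate wild-type experiments were not used here, so the precision of a reading is unknown.

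Table names gave the strain and column names the treatment. Log2 differences were wild-type minus deficient delta-Ct. The reference Ct of a column was 35 minus its cap. Genes were counted at 2-fold, limits included, and list medians are over members measured in both columns. No test was made, since each group enters as 1 value.

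The members and the 19 gene lists were chosen with earlier results of these data known. Named genes were the highest and lowest 10 in each comparison with wild type, 6 between deficient strains, the 10 most and least abundant of a column, capped genes, a fixed set of receptors and mediators, and 2 to 4 examples of each list. Further members are named to cover the plate. Alternatives were 6 other scalings, thresholds of 1.5-fold and 3-fold, and leaving out capped genes or those above Ct 33. Leaving out wells A01 to A04 and list counts under other scalings were added after seeing the data. The rule for calls and limits was run on simulated delta-Ct values. These held no noise and no column that is a mean of 2 experiments, so the run checks the arithmetic of the rule alone. Plate genes were matched to RefSeq upstream windows by symbol or synonym, and 71 of 84 had a window. Python 3.11.15 and matplotlib 3.10.9 were used.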

Additional observations from a re-analysis of the deposited data

How the results depend on the processing

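Counts of genes at least 2-fold higher and lower in TLR7-/- than in wild-type Mock were 41 and 4. The higher count was 13 after centring on the median gene, 76 without a reference gene and 23 at 3-fold. The lower count was 7 with all 5 housekeeping genes, 13 after centring, 7 at 1.5-fold, 2 without capped genes, 1 without genes above Ct 33 and 1 (*Il2*) without wells A01 to A04. For IFNAR-/- against wild type (4 and 26) the higher count was 9 with *Hsp90ab1* alone, 8 with 5 housekeeping genes, 11 after centring, 1 without a reference gene, 12 at 1.5-fold, 1 at 3-fold and 2 without genes above Ct 33, and the lower count was 46 without a reference gene and 13 at 3-fold. For TLR7-/- against IFNAR-/- (51 and 1) the higher count was 15 after centring and 77 without a reference gene, and the lower count was 3 with *Hprt1* alone, 5 with 5 housekeeping genes, 15 after centring, 3 at 1.5-fold and 0 without capped genes, without genes above Ct 33 or without wells A01 to A04. The median absolute difference of TLR7-/- from wild type was 1.10, or 0.70 after centring, and that from IFNAR-/- was 1.63, or 1.06 with 5 housekeeping genes and 0.70 after centring. The other counts over the whole plate were within 1.5 times the printed ones. Counts of the gene lists moved too. Beside the centred counts given with each list, the 5 NF-kB genes higher in TLR7-/- than in wild type were 2 with 5 housekeeping genes, and the 4 lower in IFNAR-/- were 2 with these or with *Hsp90ab1* alone. The 4 IRAK-TRAF6 genes higher in TLR7-/- were 2 with *Hprt1* alone or with 5 housekeeping genes, and the 3 MAP kinase genes lower in IFNAR-/- were 5 with *Gapdh* alone. Without a reference gene the cytokine genes higher in TLR7-/- were 10, the NF-kB genes 11 and the MAP kinase genes 10. Centring moved all log2 differences by -1.05, 0.35 and -1.63 in the 3 comparisons and turned 11 named differences. *Hrb* and *Nfkb2* went from 1.00 to -0.05 in TLR7-/- against wild type. In TLR7-/- against IFNAR-/-, *Ifng* and *Il1b* went to -0.10, *Il12a* and *Map3k1* to -0.60, *Muc13* to -0.30, *Map2k4* and *Peli1* to -0.20, *Tlr7* to -0.40 and *Ube2n* to -0.50. No other scaling turned a called difference. No paired analysis was possible because the wild-type experiments that share numbers between Mock and R848 enter the tables as their mean alone, and for the same reason leaving out an experiment was not run.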
